A study of Xenopus laevis with 15 samples.

Results

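Genes that bring sulfate into cells and turn it into the activated form used for sulfation were described in lead(II) nitrate-exposed embryos of *Xenopus laevis*, the African clawed frog. The set comprises 8 genes: the sulfate transporters slc26a1, slc26a2, slc13a1 and slc13a4, the synthesis enzymes papss1 and papss2, and the Golgi exporters slc35b2 and slc35b3. *X. laevis* carries related copies of many genes, called homeologs and marked .L and .S, and each copy was counted in a row of its own. By the Entrez identifier of papss2.S and by the symbols in the authors' deposited table, 6 of the 37018 rows belong to the set, namely papss2.S, papss1.L, papss1.S, slc26a1.L, slc35b2.S and the row given there as slc13a4.S, which RefSeq calls slc13a4l.S. The authors' deposited table also writes papss2.S as papss2.L, slc35b2.S as slc35b2.L and papss1.S as papss1. The names used here follow RefSeq, in which papss2.L is a different row. RefSeq symbols name 9 more rows as copies of the same genes, and these carry placeholder names in the authors' deposited table. All 15 rows are described, with the origin of each name stated where a count depends on it.

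The members were chosen by gene function with the fold changes and p-values against control already known, and so count as selected on those values. In the authors' deposited table papss2.S had rank 1 by p-value among 28950 genes for lead 630, and in the authors' deposited table for lead 210 it had rank 2. The comparisons of these rows with control are therefore given as a description, without p-values. The comparison between the lead levels was not itself used in that choice and was tested. It is, however, the difference between the known comparisons with control, so its p-values are not independent of the choice.

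Exposure started 48 h after fertilization, near Nieuwkoop-Faber stage 29, and ran for 96 h at 21 °C, with sampling at 6 days. There were 3 groups of 5 libraries, each from 3 pooled individuals: water alone (control), lead(II) nitrate at 210, and lead(II) nitrate at 630. The unit differs between sources, ng/L in the titles and µg/L in the protocol, so no unit is attached to the names lead 210 and lead 630. The labels do not state whether pools had their own dish or clutch; p-values therefore reflect only pool-to-pool spread, which may be technical. Adults came from a laboratory colony, and the whole body was extracted, so that a lower share of cells of a type and less RNA per cell cannot be told apart. Libraries held 10.8 to 24.7 M counts (M, units of 1e+06). Levels are in CPM, counts per 1e+06 after scaling between libraries. No transcript lengths were used, so levels of single rows are compared only within a row. Sums and shares over several rows are of counts and not of molecules.

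Inorganic sulfate enters cells through membrane carriers, because it does not cross the lipid bilayer freely. PAPS synthases then join it to ATP to make 3'-phosphoadenosine 5'-phosphosulfate (PAPS), the donor for all sulfotransferases. In the cytosol sulfotransferases of the SULT family use PAPS to conjugate steroids, bile compounds and foreign chemicals. PAPS is also carried into the Golgi, where it serves to sulfate cartilage proteoglycans, heparan sulfate and tyrosines of secreted proteins.

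Among the synthesis enzymes, the row of papss2.S had the highest log2 fold change of the 15 rows. PAPSS2 is a bifunctional enzyme with ATP sulfurylase and APS kinase activity, and in humans its loss disturbs skeletal growth and the sulfation of androgen precursors. The level of papss2.S was 21.3, 27.0, 31.0, 22.7 and 26.4 CPM in control libraries A to E. It was 177, 202, 187, 201 and 258 CPM in lead 210 libraries A to E, and 317, 305, 266, 264 and 226 CPM in lead 630 libraries A to E. Every exposed library stood far above every control library. The log2 fold change was 3.42 ± 0.12 for lead 630 over control (SE; 10.7-fold, 95% interval 3.17 to 3.67 on the log2 scale) and 2.99 ± 0.12 for lead 210 over control (7.96-fold, 2.74 to 3.24).

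The homeolog papss2.L showed a smaller log2 fold change. Its level was 11.1, 15.3, 14.3, 9.31 and 10.6 CPM in control libraries A to E, 27.3, 25.1, 24.3, 21.5 and 35.6 CPM in lead 210 libraries A to E, and 32.3, 29.8, 30.1, 21.7 and 23.8 CPM in lead 630 libraries A to E. The exposed libraries all stood above the controls, and the lead levels overlapped. The log2 fold change over control was 1.17 ± 0.16 for lead 630 and 1.13 ± 0.16 for lead 210 (SE).

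The genes of PAPSS1, the other PAPS synthase of vertebrates, did not show such a difference. The level of papss1.L averaged 11.4 ± 0.727 CPM in controls, 10.4 ± 1.10 CPM at lead 210 and 9.83 ± 1.00 CPM at lead 630 (SD, n = 5 each). Its log2 fold change over control was -0.22 ± 0.10 for lead 630 and -0.13 ± 0.10 for lead 210 (SE). The level of papss1.S averaged 3.10 ± 1.16, 3.52 ± 0.752 and 3.11 ± 0.594 CPM in the same order of groups. Both papss1 rows overlapped between groups, and the 95% intervals against control reached from -0.48 to 0.68 on the log2 scale for papss1.S. For papss1.L the interval was -0.42 to -0.02 for lead 630 and -0.33 to 0.07 for lead 210. These intervals are not adjusted for the number of genes tested, and no direction is read from them.

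Summed over the 4 papss rows, the level was 52.4 ± 5.86 CPM in controls, 246 ± 34.0 CPM at lead 210 and 316 ± 40.9 CPM at lead 630 (SD, n = 5 each). papss2.S supplied 49.0 ± 4.05% of these counts in controls, 83.3 ± 1.93% at lead 210 and 87.2 ± 0.764% at lead 630. These are shares of counts and not of molecules, since transcripts of different length give different counts.

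**Figure D1:**
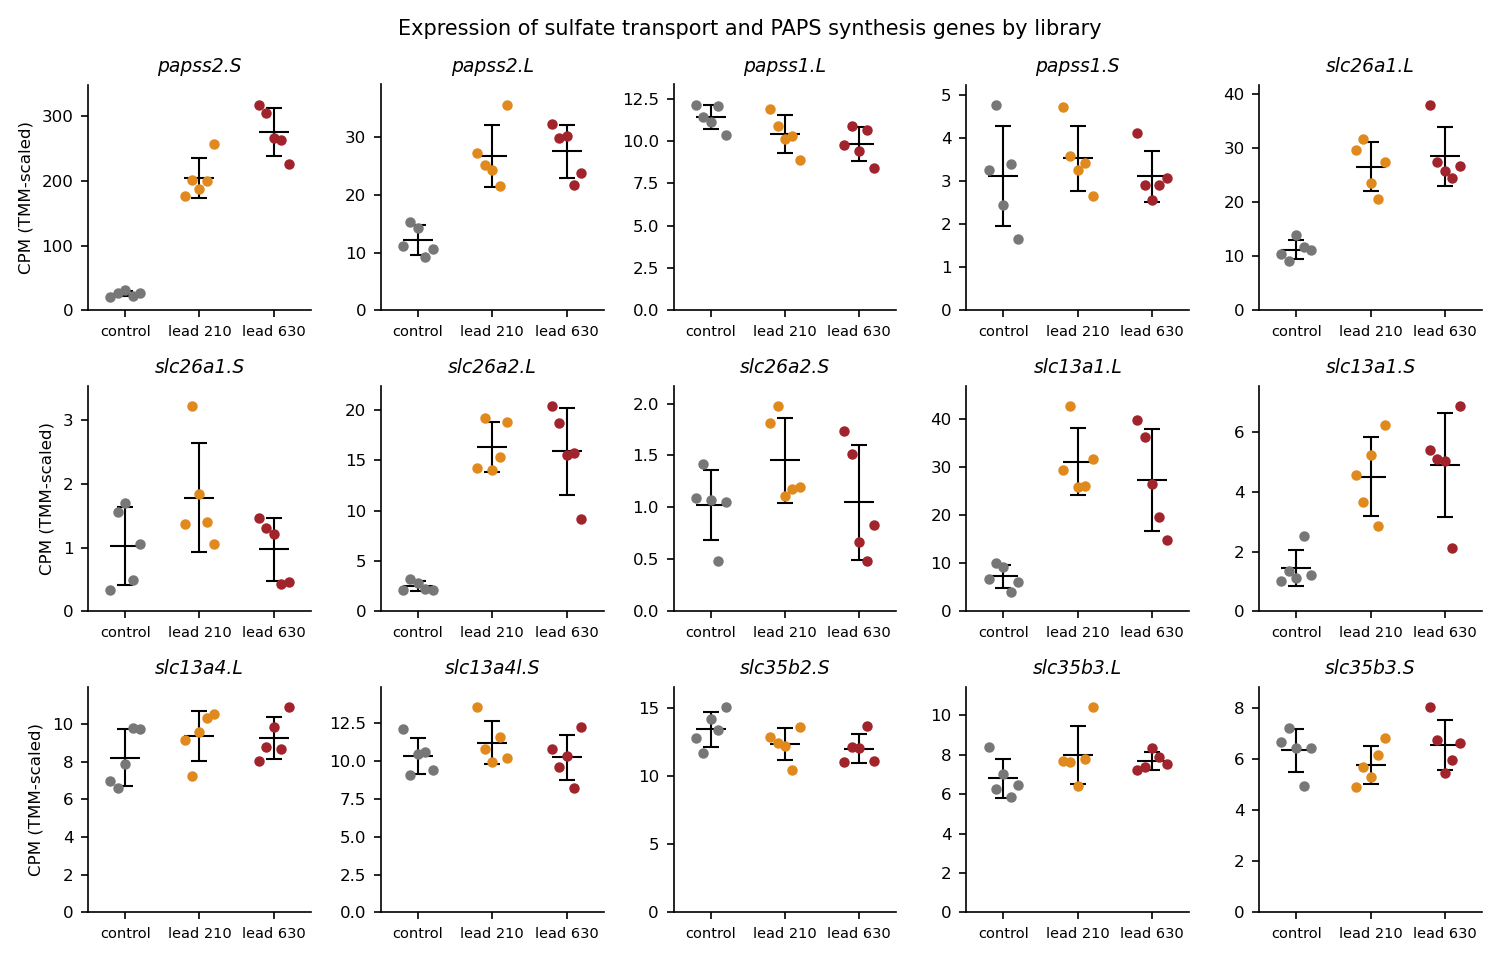
Level of each of the 15 rows in CPM (linear axis from 0, scaled separately for each row) by group: control, lead 210 and lead 630. Points are the libraries A to E from left to right within a group, the horizontal mark is the mean and the bar is 1 SD (n = 5). papss2.S, papss2.L, slc26a1.L, slc26a2.L and slc13a1.L have every exposed library above every control, whereas papss1, slc13a4, slc35b2 and slc35b3 rows overlap.

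Of the surface transporters, SLC26A2 is an anion exchanger that brings sulfate into chondrocytes, and its loss in humans causes skeletal dysplasias such as diastrophic dysplasia. The level of slc26a2.L was 2.12, 3.27, 2.81, 2.27 and 2.11 CPM in control libraries A to E. It was 14.3, 19.2, 14.1, 15.4 and 18.8 CPM in lead 210 libraries and 20.4, 18.7, 15.5, 15.7 and 9.15 CPM in lead 630 libraries A to E. The exposed libraries all stood above the controls, and lead 630 E was the lowest exposed library. The log2 fold change over control was 2.64 ± 0.20 for lead 630 (SE; 6.25-fold) and 2.70 ± 0.20 for lead 210 (6.49-fold). The other homeolog, slc26a2.S, was at 1.02 ± 0.337 CPM in controls, 1.45 ± 0.407 CPM at lead 210 and 1.05 ± 0.549 CPM at lead 630 (SD, n = 5 each), with 6 to 27 counts per library, and its groups overlapped. Its 95% interval for lead 630 over control ran from -0.77 to 0.65 on the log2 scale.

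SLC26A1 exchanges sulfate for oxalate or bicarbonate and in mammals lies in the membranes of liver and kidney cells. The level of slc26a1.L was 10.3, 9.09, 13.8, 11.7 and 11.1 CPM in control libraries A to E, 29.5, 31.7, 23.4, 20.5 and 27.3 CPM in lead 210 libraries, and 37.9, 27.4, 25.6, 24.5 and 26.6 CPM in lead 630 libraries. No exposed library overlapped the controls, and lead 630 A was the highest of all. Over control, the log2 fold change of slc26a1.L was 1.33 ± 0.14 for lead 630 and 1.23 ± 0.14 for lead 210 (SE). slc26a1.S had 6 to 44 counts per library and averaged 1.03 ± 0.611 CPM in controls, 1.78 ± 0.850 CPM at lead 210 and 0.974 ± 0.496 CPM at lead 630 (SD, n = 5 each). With this spread its 95% interval for lead 210 over control ran from -0.18 to 1.65 on the log2 scale, so a difference of the size seen in slc26a1.L lay inside it, whereas for lead 630 it ran from -1.13 to 0.80.

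SLC13A1 is the sodium-sulfate cotransporter that in mammals reclaims sulfate from urine in the kidney tubule and takes it up in the gut. The level of slc13a1.L was 6.75, 10.2, 9.22, 4.13 and 6.09 CPM in control libraries A to E, 29.4, 42.7, 25.8, 26.1 and 31.6 CPM in lead 210 libraries, and 39.8, 36.2, 26.5, 19.5 and 14.9 CPM in lead 630 libraries. All exposed libraries stood above the controls, the lead levels overlapped, and the lead 630 libraries were spread more widely than the lead 210 libraries (SD 10.6 and 6.89 CPM). Over control, slc13a1.L had a log2 fold change of 1.88 ± 0.29 for lead 630 and 2.08 ± 0.29 for lead 210 (SE).

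The level of slc13a1.S was 1.03, 1.35, 1.12, 2.51 and 1.22 CPM in control libraries A to E, 4.57, 3.66, 5.23, 2.86 and 6.24 CPM in lead 210 libraries, and 5.40, 5.11, 5.03, 2.12 and 6.87 CPM in lead 630 libraries. Lead 630 D lay below control D, and the other lead 630 libraries stood above all controls. The log2 fold change over control was 1.81 ± 0.31 for lead 630 and 1.68 ± 0.31 for lead 210 (SE).

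The related sodium-sulfate carrier SLC13A4, known in mammals from placenta and brain, gave other values. slc13a4.L averaged 8.20 ± 1.51 CPM in controls, 9.36 ± 1.31 CPM at lead 210 and 9.24 ± 1.13 CPM at lead 630 (SD, n = 5 each), and slc13a4l.S averaged 10.3 ± 1.19, 11.2 ± 1.45 and 10.2 ± 1.49 CPM in the same order. Both rows overlapped between groups, with log2 fold changes for lead 630 over control of 0.18 ± 0.13 for slc13a4.L and -0.01 ± 0.12 for slc13a4l.S (SE). The row slc13a4l.S belongs to the set only by the authors' symbol. By its RefSeq name it goes with slc13a4l.L, which stands outside the set.

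The exporters SLC35B2 and SLC35B3 carry PAPS from the cytosol into the Golgi. slc35b2.S, the only row found for that gene, averaged 13.4 ± 1.28 CPM in controls, 12.3 ± 1.17 CPM at lead 210 and 12.0 ± 1.06 CPM at lead 630 (SD, n = 5 each). slc35b3.L averaged 6.80 ± 0.997, 7.98 ± 1.47 and 7.67 ± 0.441 CPM, and slc35b3.S averaged 6.35 ± 0.855, 5.79 ± 0.745 and 6.58 ± 0.979 CPM, in the same order. All 3 exporter rows overlapped between groups. Their log2 fold changes for lead 630 over control were -0.16 ± 0.09 for slc35b2.S, 0.17 ± 0.13 for slc35b3.L and 0.03 ± 0.13 for slc35b3.S (SE).

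In all, 6 of the 15 rows were called higher at lead 630 than in control and 0 were called lower (edgeR quasi-likelihood test, Benjamini-Hochberg adjusted p under 0.05 over 27060 genes), where 1.98% of all genes tested were called higher and 0.303% lower. At lead 210 the same rows, 6 of 15, were called higher and 0 lower, where 1.76% of all genes were called higher and 0.144% lower. The choice of the set used these contrasts, so nothing is read from these counts, and both comparisons share the control libraries. Of the 6 rows that the rule finds, 2 were called, and of the 9 that only RefSeq names, 4 were called. Groups did not overlap, with exposed libraries above control, in 5 of 15 rows at lead 630 (2.86% of all genes) and in 6 of 15 at lead 210 (2.94% of all genes). The median log2 fold change of the 15 rows was 0.17 at lead 630 and 0.47 at lead 210, beside -0.0052 and -0.0021 over all genes tested. The 9 rows not called had log2 fold changes from -0.22 to 0.18 at lead 630 and from -0.13 to 0.74 at lead 210. RefSeq lists 3 further rows under near names, slc26a2.2.L, slc26a2.2.S and slc13a4l.L, chosen after their values were seen. None of these was called, and their log2 fold changes for lead 630 over control were -0.05, -0.18 and -0.18.

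**Figure D2:**
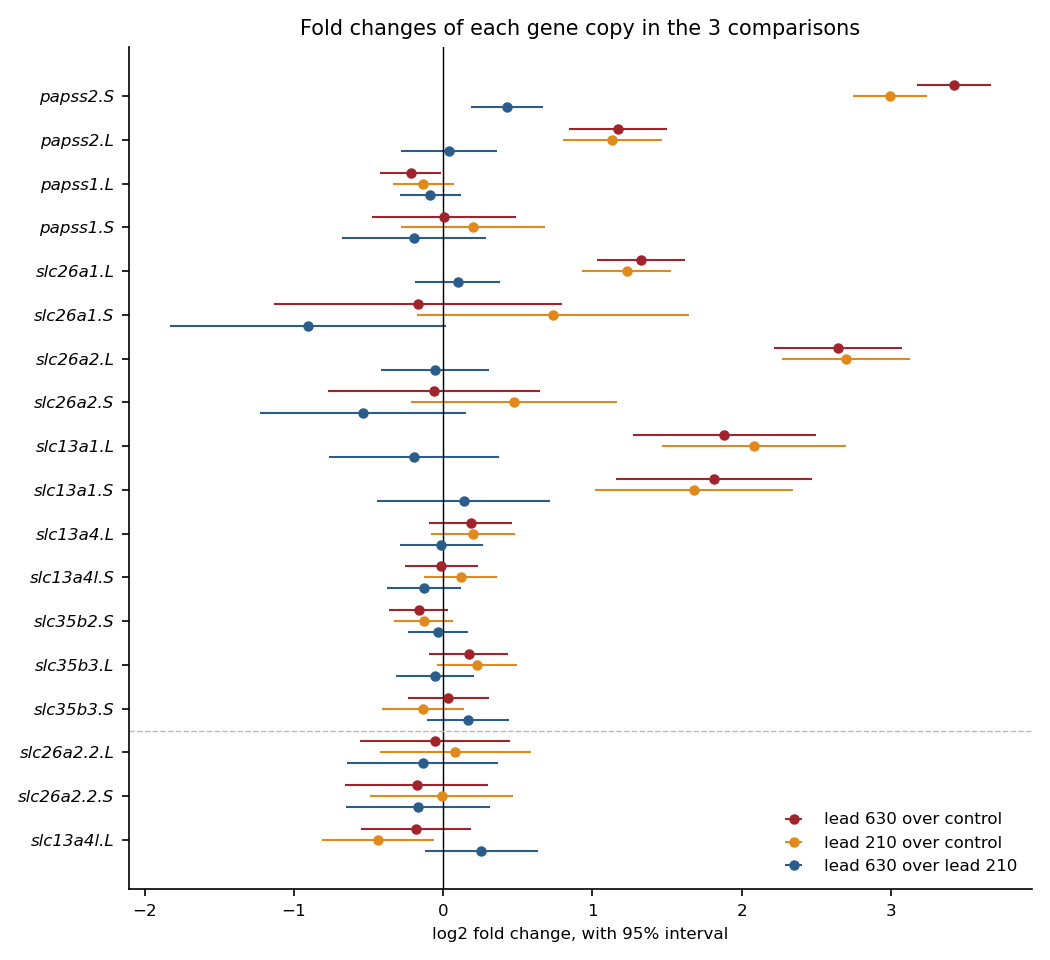
Log2 fold change with its 95% interval (horizontal bars) of each row for lead 630 over control, lead 210 over control and lead 630 over lead 210, with near-named paralogs under the dashed line. papss2.S stands at 3.42 and 2.99 over control, and the points for lead 630 over lead 210 lie between -0.90 and 0.43.

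The comparison of lead 630 with lead 210 asks whether the higher level changed these rows further. None of the 15 rows passed the test (0 higher, 0 lower; adjusted p 0.932 or above in edgeR's quasi-likelihood test), and 0% of all 27060 genes did. Without adjustment 1260 genes (4.66%) had p under 0.05, and DESeq2 called 2 genes higher and 4 lower. papss2.S averaged 276 ± 36.5 CPM at lead 630 and 205 ± 31.2 CPM at lead 210 (SD, n = 5 each). The log2 fold change was 0.43 ± 0.11 (SE; 95% interval 0.19 to 0.67; edgeR unadjusted p = 0.0016, adjusted p = 0.932). Of the lead 630 libraries, 4 of 5 were above every lead 210 library, and lead 630 E at 226 CPM was below lead 210 E at 258 CPM. For slc26a2.L the log2 fold change was -0.05 ± 0.17 with a 95% interval of -0.42 to 0.31 (SE), for slc26a1.L 0.10 ± 0.14 with an interval of -0.19 to 0.38, and for papss2.L 0.04 ± 0.15 with an interval of -0.28 to 0.36. The widest interval was that of slc26a1.S, -1.83 to 0.02 around -0.90 ± 0.44 (SE; edgeR unadjusted p = 0.0538, adjusted p = 0.932). These intervals allow changes of the size of the point estimates and do not show equal levels.

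The homeologs of a pair differed in their share of counts. In papss2, the .S row held 68.0 ± 3.27% of the pair's counts in controls, 88.5 ± 1.36% at lead 210 and 90.9 ± 0.951% at lead 630 (SD, n = 5 each), and no exposed library fell below 86.6%. In slc26a2 the .S row held 28.6 ± 6.61% in controls, 8.19 ± 2.10% at lead 210 and 6.16 ± 2.42% at lead 630. By the RefSeq names, the copy with the larger share at both lead levels was thus .S in papss2 and .L in slc26a2. The authors' deposited table labels that papss2 row papss2.L. In slc26a1 the .S share was 8.28 ± 4.79% in controls, 6.23 ± 2.21% at lead 210 and 3.24 ± 1.45% at lead 630, and these groups overlapped. In slc13a1 it was 18.0 ± 11.3%, 12.9 ± 3.96% and 16.3 ± 8.80% in the same order. papss1 at 20.9 ± 5.74%, 25.1 ± 2.00% and 24.0 ± 3.92%, and slc35b3 at 48.3 ± 3.65%, 42.2 ± 2.77% and 46.0 ± 4.96%, overlapped between groups. How reads shared by both copies were assigned is not given in the sources used here, so these shares carry that uncertainty. The counts of rows given to the same gene were also summed, with slc13a4 joining slc13a4.L and slc13a4l.S and slc35b2 having 1 row. By their RefSeq names the slc13a4 rows are not a homeolog pair. In that fit papss2, slc26a1, slc26a2 and slc13a1 were called higher in both comparisons with control and the other 4 genes were not. The genes were chosen with these contrasts known, and no share called over all summed genes is given. Nothing is therefore read from this count.

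**Figure D3:**
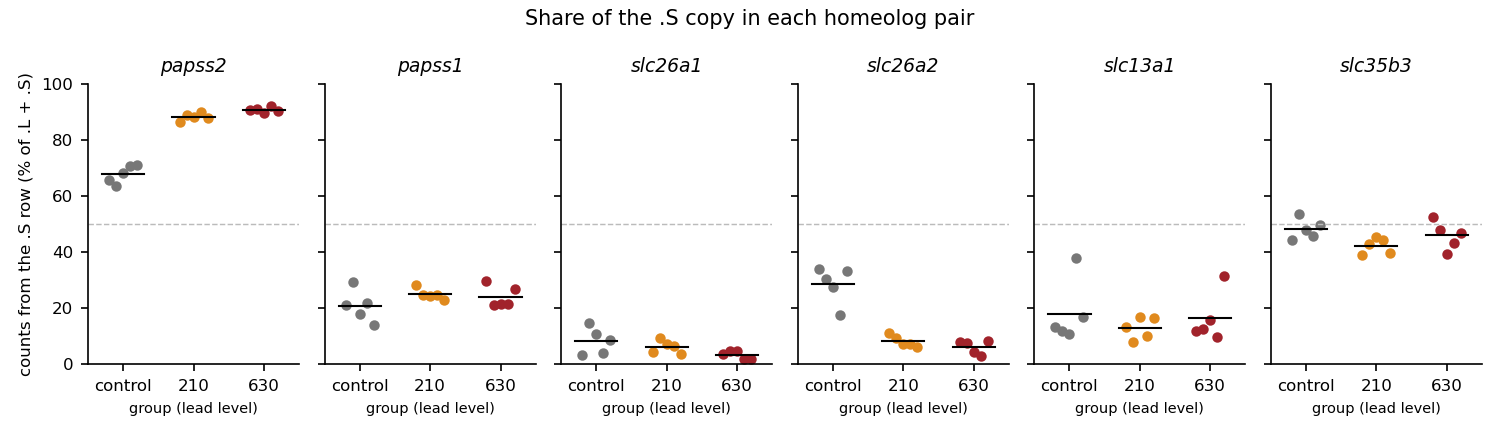
Percent of a homeolog pair's counts that came from the .S row, for 6 genes with both copies, in control, lead 210 and lead 630. Points are libraries and the horizontal line is the group mean. The .S share of papss2 is 68.0% in control and 88.5% and 90.9% at the lead levels, that of slc26a2 is 28.6% in control and 8.19% and 6.16%, and the other pairs overlap between groups.

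Within groups, the pairwise correlations of the 6 called rows differed widely, from -0.17 to 0.84. Pearson r was taken between deviations of log2 CPM from the group means, over 15 libraries. It was 0.84 for slc13a1.L and slc26a2.L, 0.76 for papss2.S and slc26a2.L, 0.75 for papss2.L and slc13a1.L, and 0.71 for papss2.S and papss2.L. The other pairs had lower values. For slc13a1.S r was -0.01 with papss2.S, -0.17 with slc13a1.L, -0.16 with slc26a2.L, 0.24 with papss2.L and 0.26 with slc26a1.L. With 18 to 166 counts per library in slc13a1.S, depth limits what these r values can show. The 15 pairs had a median r of 0.36, with no value for other pairs of genes to set beside it. Genes outside the set were compared with papss2.S if they had at least 1 CPM and no placeholder name, which left 20114 genes. The highest values were those of ubc.S (polyubiquitin, r = 0.90), gsr.L (glutathione reductase, r = 0.87), cth.L (cystathionine gamma-lyase, r = 0.86), tpmt.L (thiopurine methyltransferase, r = 0.85) and chmp1a.S (a membrane-remodelling subunit, r = 0.84). As the top of so many values, they were selected for being high. These values describe 15 libraries that share preparation and depth differences, and they carry no test.

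The supply of sulfate from within the body was examined through genes that break down sulfur amino acids. This list, those that follow and the rule for naming their genes were chosen with earlier results of these data known. The p-values of their rows against control are therefore descriptive and no independent support. Of 21 rows tested, 4 rose and 0 fell at both lead levels (over all genes, 1.98% higher and 0.303% lower at lead 630, and 1.76% higher and 0.144% lower at lead 210), with list medians of 0.08 at lead 630 and 0.11 at lead 210 on the log2 fold change scale. ethe1.S, the gene of the persulfide dioxygenase of mitochondria, averaged 53.7 ± 10.7 CPM at lead 630 and 13.6 ± 2.94 CPM in controls (SD, n = 5 each), and rose by 1.97 ± 0.14 on the log2 scale (SE; edgeR adjusted p = 2.05e-07). At lead 210 it averaged 55.2 ± 4.64 CPM and rose by 2.01 ± 0.14 (edgeR adjusted p = 2.44e-07). cth.L, the enzyme that makes cysteine from cystathionine, averaged 104 ± 8.07 CPM at lead 630 and 46.4 ± 6.65 CPM in controls (log2 fold change 1.16 ± 0.09; edgeR adjusted p = 1.06e-07). Both copies of sqor, the sulfide oxidase of mitochondria, were among the 4 (sqor.S named after its values were seen): at lead 630 sqor.L rose by 0.90 ± 0.10 (edgeR adjusted p = 1.43e-05) and sqor.S by 0.64 ± 0.08 (edgeR adjusted p = 5.54e-05). Other enzymes of the list did not pass: at lead 630 over control, suox.L (sulfite oxidase, which makes sulfate) had a log2 fold change of 0.02 ± 0.11, and cdo1.L (cysteine dioxygenase, the first step of cysteine oxidation) of -0.22 ± 0.11 (SE).

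Other anion transporters of the SLC26 and SLC13 families were mostly not called. Of 15 rows 2 rose and 0 fell at both lead levels. Over all genes, 1.98% were called higher and 0.303% lower at lead 630, and 1.76% and 0.144% at lead 210. The list median was 0.12 at lead 630 and 0.14 at lead 210. slc26a7.L, an anion exchanger known in mammals from kidney, stomach and thyroid, averaged 9.79 ± 3.60 CPM at lead 630, against 3.82 ± 1.22 CPM in controls (log2 fold change 1.33 ± 0.28; edgeR adjusted p = 0.0151). At lead 210 its log2 fold change was 1.39 ± 0.28 (edgeR adjusted p = 0.0128). slc26a5.L, named prestin in mammals, rose by 0.64 ± 0.12 at lead 630 (edgeR adjusted p = 0.00337) and by 0.62 ± 0.12 at lead 210 (edgeR adjusted p = 0.00584).

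Enzymes that use PAPS were examined by compartment. Of 15 cytosolic sulfotransferase rows, 3 rose and 1 fell at lead 630 (over all genes, 1.98% higher and 0.303% lower), and 3 rose and 0 fell at lead 210 (1.76% and 0.144%), with list medians of 0.04 at both. sult2a1.L, of the family that sulfates steroids and bile compounds, averaged 52.6 ± 5.56 CPM at lead 630 and 17.3 ± 3.73 CPM in controls (SD, n = 5 each; log2 fold change 1.60 ± 0.13; edgeR adjusted p = 2.69e-07). At lead 210 it averaged 45.3 ± 5.86 CPM (log2 fold change 1.38 ± 0.13; edgeR adjusted p = 2.32e-06). The related cholesterol sulfotransferase gene sult2b1.L rose by 1.56 ± 0.15 at lead 630 (SE; edgeR adjusted p = 5.75e-06) and by 1.52 ± 0.15 at lead 210 (edgeR adjusted p = 1.14e-05), with every exposed library above every control and the calls kept with any 1 library left out. Its homeolog sult2b1.S, named after its values were seen, did not rise. The log2 fold change of sult2b1.S was -0.30 ± 0.10 at lead 630 (SE; edgeR adjusted p = 0.178) and -0.17 ± 0.10 at lead 210 (edgeR adjusted p = 0.534). sult2a1.S rose by 0.93 ± 0.20 at lead 630 (edgeR adjusted p = 0.0192), but not after control A, control B or lead 630 B was left out (adjusted p 0.05 to 0.0586), and its log2 fold change at lead 210 was 0.51 ± 0.20 (edgeR adjusted p = 0.295). The row that fell, named after its values were seen, was the estrogen sulfotransferase gene sult1e1.L, by 0.47 on the log2 scale at lead 630 (SE 0.11; edgeR adjusted p = 0.0256). Omitting control C, control D, control E, lead 630 C or lead 630 E ended its call (adjusted p 0.0518 to 0.0902). sult1c4.S had a log2 fold change of 0.79 ± 0.18 at lead 210 (edgeR adjusted p = 0.0319) and 0.71 ± 0.18 at lead 630 (edgeR adjusted p = 0.053), and between the lead levels its edgeR adjusted p was 0.966. The lead 210 call of sult1c4.S ended without control A, C, D or E or lead 210 A, C or D (adjusted p 0.0712 to 0.0864), and at lead 630 the call was made without lead 630 D (adjusted p = 0.000222).

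Of 46 Golgi sulfotransferase rows, 0 rose and 1 fell at lead 630, and 0 rose and 2 fell at lead 210. Over all genes, 1.98% were called higher and 0.303% lower at lead 630, and 1.76% and 0.144% at lead 210. The list medians were -0.07 at lead 630 and -0.09 at lead 210. The heparan sulfate 3-O-sulfotransferase gene hs3st6.L averaged 4.88 ± 0.785 CPM at lead 630 and 7.04 ± 0.852 CPM in controls (SD, n = 5 each; edgeR adjusted p = 0.0398), and 4.90 ± 0.603 CPM at lead 210 (edgeR adjusted p = 0.0499). chst8.L, which sulfates N-acetylgalactosamine on glycoproteins, averaged 3.56 ± 0.570 CPM at lead 210 and 5.32 ± 0.546 CPM in controls (edgeR adjusted p = 0.0407). Both are near the threshold. The hs3st6.L call held only without control C or lead 630 B at lead 630 (otherwise adjusted p 0.0641 to 0.128) and only without control C or lead 210 C at lead 210 (otherwise 0.0649 to 0.142), when 1 library at a time was left out. The chst8.L call held only without control E or lead 210 C (otherwise 0.0661 to 0.131).

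Of 17 sulfatase rows 1 rose and 1 fell at lead 630 (over all genes, 1.98% higher and 0.303% lower), and 0 rose and 1 fell at lead 210 (1.76% and 0.144%). arsb.L, a lysosomal enzyme that removes sulfate from glycosaminoglycans, rose by 0.59 ± 0.12 at lead 630 (edgeR adjusted p = 0.00583). At lead 210 its log2 fold change was 0.44 ± 0.12 (SE; edgeR adjusted p = 0.063), and it was called with DESeq2 (adjusted p = 0.024), under the replicate block (0.0445) and without control C (0.00876). sulf1.L, an extracellular enzyme that removes sulfate from heparan sulfate, fell by 0.35 on the log2 scale at lead 630 (SE 0.08; edgeR adjusted p = 0.0189) and at lead 210 (edgeR adjusted p = 0.02), where omitting control A, B, D, lead 210 C or lead 210 E ended the call (adjusted p 0.0509 to 0.0574). The 3 rows for the breakdown of PAP, the by-product of sulfation, were not called: bpnt1.L had a log2 fold change of 0.51 ± 0.16 at lead 630 (edgeR adjusted p = 0.144) bpnt2.L of 0.04 ± 0.07 and bpnt2.S of -0.04 ± 0.10 (SE). No row of these lists was called between lead 630 and lead 210.

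**Figure D4:**
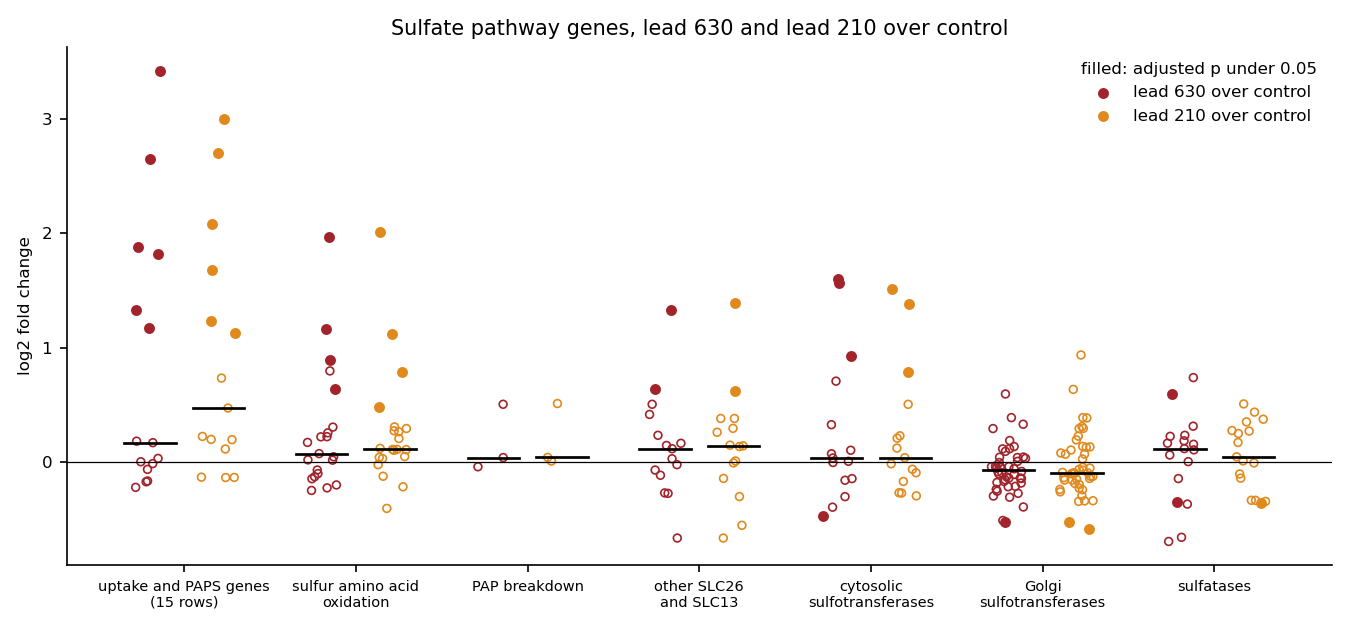
Log2 fold change over control of every tested row in the set of 15 and in the lists of sulfate-pathway genes, for lead 630 and lead 210. Filled points passed an adjusted p of 0.05 over all genes, open points did not, and black lines are medians (0.17 and 0.47 for the set of 15, between -0.09 and 0.14 for the lists).

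As a comparison, 14 tested rows of genes known as NRF2 targets (genes that answer oxidants, among them glutathione and NADPH enzymes) were all called higher at both lead levels. Over all genes 1.98% were called higher at lead 630 and 1.76% at lead 210. The list medians were 1.62 at lead 630 and 1.25 at lead 210. This list too was chosen with earlier results known, so its count is a description only. Genes marking tissues in which these transporters act were measured in the same fit, in which 1.98% of all genes were called higher and 0.303% lower at lead 630, and 1.76% and 0.144% at lead 210. Of 13 kidney tubule rows 2 rose and 0 fell at both lead levels, both organic anion carriers (slc22a6.S and slc22a8.S), and their list's summed level was 151 to 191 CPM in controls, 156 to 237 CPM at lead 210 and 170 to 251 CPM at lead 630, while aqp2.L and aqp2.S were at 0 in all libraries. Of 19 intestine rows 2 rose at lead 630 and 4 at lead 210, with summed levels of 1245 to 1999 CPM in controls, 1881 to 2444 CPM at lead 210 and 1556 to 2208 CPM at lead 630, and median log2 fold changes over control of 0.43 at lead 210 and 0.26 at lead 630. Of 28 cartilage rows 0 rose and 6 fell at lead 630 and 1 fell at lead 210, with summed levels of 4148 to 6402 CPM in controls, 3135 to 5294 CPM at lead 210 and 3239 to 4268 CPM at lead 630. Of 17 liver rows none was called in edgeR, with summed levels of 1398 to 2222 CPM in controls, 1511 to 2035 CPM at lead 210 and 1448 to 1896 CPM at lead 630. Of 9 mucus and goblet cell rows 1 fell at lead 630, with summed levels of 596 to 702 CPM in controls, 644 to 695 CPM at lead 210 and 478 to 652 CPM at lead 630. The summed levels took in every row of a list, tested or not. These were 15 kidney tubule, 20 intestine, 28 cartilage, 19 liver and 11 mucus and goblet cell rows. Rows with many counts weigh most in such sums. Median log2 fold changes at lead 630 and lead 210 were -0.55 and -0.35 for cartilage and 0.24 and 0.22 for kidney tubule rows. They were -0.01 and -0.20 for liver, and -0.19 and 0.03 for mucus and goblet cell rows. Cartilage rows ranged from -1.17 to -0.05 at lead 630 and from -0.73 to 0.46 at lead 210. Whether the share of these cells has a part in the levels of the sulfate genes was not tested.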

How the data were processed

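Poly(A) RNA from 15 pools of 3 whole embryos was sequenced after library preparation with a directional kit, per the labels' protocols. The submitters' processing notes name edgeR, HISAT2, kallisto and Trim Galore, with no version. Which build, annotation and counter were used is not given in the sources used here. The authors deposited raw counts for 37018 genes, of which 3220 were at 0 in all libraries, and tables of their comparisons with p-values, a likelihood-ratio score and, on the log2 scale, fold changes and mean CPM. No transcript lengths, coordinates or sequences were used.

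Counts were tested here with edgeR 4.0.16 (R 4.3.3): filterByExpr by group, TMM normalization (factors 0.977 to 1.03), 1 robust quasi-likelihood fit over 15 libraries with group as the only term, and Benjamini-Hochberg adjustment over the 27060 genes tested, called under 0.05. Totals were 10.8 to 24.7 M counts before scaling. CPM values use the TMM-scaled totals, on which a count of 3 stood at 0.124 to 0.274 CPM. Intervals of 95% rest on the fitted SE. Symbols came from RefSeq's gene table (assembly Xenopus_laevis_v10.1), which matched 33597 identifiers. The members, lists and rule for named genes (of each list, up to 3 called genes by p per comparison) were chosen with earlier results of these data known. The 30 pairs of libraries within groups differed by more than counting noise (chi-square per gene 4.11 to 16.3). Scripts were tested on simulated data. Alternatives were other filters and normalizations, DESeq2 1.42.0, a replicate block, a fit on 2 groups alone, summed homeologs and leaving out each library.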

Additional observations from a re-analysis of the deposited data

Results flagged for a closer look

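Within groups of 5 libraries, 72 sets of values were examined for a library far from the others, and 4 were found. Chance gives about 1 in 20, so this number is near what chance gives. slc26a1.L stood at 37.88 CPM in lead 630 A, against 24.5 to 27.4 CPM in the other lead 630 libraries. slc13a1.S stood at 2.509 CPM in control D, against 1.03 to 1.35 CPM in the other controls. The .S row held 37.8% of slc13a1 counts in control D, against 10.8 to 16.7% in the other controls. Both control D flags rest on the same slc13a1.S counts. The .S row held 31.56% of slc13a1 counts in lead 630 E, against 9.78 to 15.9% in the other lead 630 libraries.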

How the results depend on the processing

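The called rows in the set numbered 6 higher and 0 lower in both comparisons with control, and 0 between the lead levels. These counts were the same in every alternative fit: no filter, another normalization, DESeq2, the replicate block, the fit on 2 groups and each library left out (range 6 to 6). The members were chosen with the comparisons with control known, and these fits reuse the same counts. The stable counts against control are therefore a description and no independent support. With summed homeologs, 4 of 8 genes were called higher in both comparisons with control, without a share over all summed genes to set beside it. This count too is a description only. Same-letter libraries had correlations of -0.118 to 0.311 in their deviations from group means (8 of 15 over 0.1). Compared with the libraries of the other groups, 6 of 15 libraries correlated best with their own letter. No value expected by chance is set beside this count. For letters A, B and E every correlation was above 0 (0.069 to 0.311), and for C and D they ran from -0.118 to 0.080. The main fit left the letters out, but these values do not show that same-letter libraries are unrelated. What the letters share was not tested. Under the replicate block, all genes called lower were 142 at lead 630 (82 without it) and 88 at lead 210 (39 without it). DESeq2 called 191 lower at lead 630, 115 lower at lead 210, and 2 higher and 4 lower between the lead levels, where edgeR called 0. Of the other sulfate pathway rows, those lower at lead 630 were 5 with DESeq2 (3 with edgeR), and those lower at lead 210 were 1 without a filter on low counts (3 with it). Leaving out 1 library gave 390 to 602 genes higher and 44 to 95 lower at lead 630, 338 to 454 higher and 12 to 37 lower at lead 210, and 0 to 1 higher and 0 to 0 lower between lead levels. The genes lower at lead 630 were 44 when control C was left out, 45 for lead 630 C and 48 for lead 630 E; those lower at lead 210 were 17 for control A or control B, 19 for lead 210 A and 12 for lead 210 D. Pathway rows then ranged from 9 to 13 higher and 1 to 5 lower at lead 630, and from 8 to 9 higher and 0 to 2 lower at lead 210. Calls that ended under an alternative were sult1e1.L at lead 630 (adjusted p = 0.0678 in the fit on 2 groups), sult2a1.S at lead 630 (adjusted p = 0.059 under the block), sult1c4.S at lead 210 (0.0591 under the block), chst8.L at lead 210 (0.0518 without filter), hs3st6.L (0.075 at lead 630 in the fit on 2 groups) and sulf1.L at lead 210 (up to 0.0574 with a library left out). arsb.L at lead 210 and sult1c4.S at lead 630 gained a call with DESeq2 (0.024 and 0.00407). The cause was not tested. At 6 to 44 counts per library, depth limits what can be said of slc26a1.S and slc26a2.S.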
